A study of Mus musculus with 4 samples.

Results

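The 10 genes described here encode regulators of mitochondrial biogenesis, fusion, fission and quality control: Ppargc1a, Ppargc1b, Nrf1, Esrra, Tfam, Mfn1, Mfn2, Opa1, Dnm1l and Pink1. They were taken as a list of symbols, each of which matched 1 of the 55401 genes in the count tables. No measured value was used to choose them, but the list was written with earlier results of these data known. RNA was sequenced from 4 libraries of C57BL/6 mice, 1 each from the kidney and the heart of a CLP group and of a CLP + MLT group. CLP is cecal ligation puncture, an operation in which gut bacteria leak into the abdomen and cause sepsis, and both groups of each tissue had it. MLT is melatonin, a hormone that the study dissolved in ethanol and added to the drinking water (25 μg/ml) over the 14 days before the operation. The mice of the kidney experiment were male and 8 weeks old, and their kidneys were taken 24 h after CLP. The study's methods describe kidneys only, so sex, age, dose and time are not stated for the hearts, nor is what the CLP group drank. The labels name the CLP + MLT libraries with MLT4 in the title and do not explain the number. Whether RNA of several mice was pooled in a library is not stated.

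Each group had 1 library, so no difference below could be set against the spread between mice, and no test was made. The interval given with each ratio is a 95% exact Clopper-Pearson interval that covers counting error only. The libraries held 15883057 to 22927905 reads counted on genes. Genes of the mitochondrial genome took 14.8% of these reads in the CLP kidney, 24.2% in the CLP + MLT kidney, 31.6% in the CLP heart and 36.0% in the CLP + MLT heart. The tissues matched their labels. The summed level of 6 proximal tubule markers was 1353 and 1061 TPM (transcripts scaled for exon length and to a fixed total per library) in the kidney libraries against 32.9 and 59.2 TPM in the heart libraries. That of 7 cardiomyocyte markers was 14273 and 9134 TPM in heart against 5.62 and 6.79 TPM in kidney. In bulk tissue, fewer cells of a type and less RNA per cell cannot be told apart.

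PGC-1α and PGC-1β, encoded by Ppargc1a and Ppargc1b, are transcriptional coactivators that drive mitochondrial biogenesis. They do not bind DNA themselves and work through factors such as NRF1 and the orphan nuclear receptor ERRα, encoded by Nrf1 and Esrra. These factors raise the expression of nuclear genes for the respiratory chain and of Tfam, whose protein packages mitochondrial DNA and starts its transcription. Mitofusins (Mfn1, Mfn2) fuse the outer membranes of mitochondria and OPA1 fuses the inner ones, while the dynamin DRP1, encoded by Dnm1l, divides them. PINK1 is a kinase that collects on damaged mitochondria and marks them for removal by autophagy. Proximal tubule cells and cardiomyocytes are both rich in mitochondria.

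The sequences before the start sites of Pink1, Esrra, Opa1 and Tfam are given first, because Pink1 and Esrra differed in opposite directions between the heart libraries, and Opa1 and Tfam, like Pink1, held a motif of a factor of this pathway. RefSeq promoter windows on build GRCm38.p6 (250 bases before to 50 after a start site) were found for 9 of the 10 genes, with 13 windows in all, and Ppargc1b had no entry. Each sequence below is the 250 bases before the RefSeq start, 5′ to 3′ on the gene's strand. The gene spans given further below come from another annotation, GENCODE. There Pink1 (to 138326307), Esrra (to 6921813) and Tfam (to 71238280) reach upstream of the RefSeq starts. The marked matches of Pink1 and Tfam thus lie inside the GENCODE spans of these genes. Capitals mark a match to 1 of the 5 motifs that were searched on both strands.
Pink1: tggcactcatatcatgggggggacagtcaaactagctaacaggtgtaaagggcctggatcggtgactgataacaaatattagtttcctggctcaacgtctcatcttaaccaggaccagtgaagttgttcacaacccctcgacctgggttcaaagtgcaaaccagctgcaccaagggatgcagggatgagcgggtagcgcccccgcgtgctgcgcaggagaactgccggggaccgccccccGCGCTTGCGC
Esrra: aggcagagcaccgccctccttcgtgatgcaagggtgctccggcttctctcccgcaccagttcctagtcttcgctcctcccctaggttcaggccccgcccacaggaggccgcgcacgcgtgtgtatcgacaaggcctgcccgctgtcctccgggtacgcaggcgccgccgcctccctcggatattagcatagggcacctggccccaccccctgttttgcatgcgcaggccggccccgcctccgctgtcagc
Opa1: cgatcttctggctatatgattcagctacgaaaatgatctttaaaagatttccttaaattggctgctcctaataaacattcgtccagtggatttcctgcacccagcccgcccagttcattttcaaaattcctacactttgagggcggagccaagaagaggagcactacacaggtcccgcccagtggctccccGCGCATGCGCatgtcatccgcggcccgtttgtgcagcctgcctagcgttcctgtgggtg
Tfam: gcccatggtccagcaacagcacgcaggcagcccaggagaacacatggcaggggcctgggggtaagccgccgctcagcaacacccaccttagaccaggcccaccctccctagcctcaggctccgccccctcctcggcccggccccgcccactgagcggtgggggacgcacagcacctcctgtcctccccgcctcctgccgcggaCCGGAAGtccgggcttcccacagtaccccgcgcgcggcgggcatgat
They lie at chr4:138326297-138326546 on the minus strand for Pink1, chr19:6921809-6922058 on the minus strand for Esrra, chr16:29579084-29579333 on the plus strand for Opa1 and chr10:71238045-71238294 on the minus strand for Tfam. The capitals in Pink1 and Opa1 are matches to the NRF1 motif (GCGCA, any base, then GCGC), which 4.6% of all 32851 windows held. The match in Pink1, read on the opposite strand, began 10 bases before the RefSeq start and that in Opa1 59 bases before it. The capitals in Tfam match the motif CCGGAAG of GABP, another factor that PGC-1 coactivators work with, held by 8.86% of windows and found also in windows of Mfn1 and Dnm1l. The ERR motif TNAAGGTCA (1.28% of windows), the E-box CACGTG (7.15%) and the cyclic AMP motif TGACGTCA (1.79%) had no match in any window of the 9 genes. No 2 matches overlapped. A match or its absence in these letters is a description of the window and says nothing of binding.

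In the kidney, none of the 10 regulators differed by 1.5-fold or more between the CLP + MLT and CLP libraries, a fold that 22.6% of the 16932 genes compared passed in either direction. A gene was compared where its 2 libraries averaged 10 counts or more, and all 10 regulators were. Their log2 ratios of CLP + MLT over CLP, from counts scaled with the TMM method, ran from −0.14 for Nrf1 to 0.40 for Pink1, with a median of 0.04, against 0.0029 for all genes. The counting interval lay wholly above 0 for 4 regulators and wholly below for 1, which was so for 26.2% and 25.6% of all genes. Over all genes, 48.6% of those past the fold were higher, a share of 26.6% when libraries were scaled by size only. In the heart, 3 of the 10 passed the fold: Ppargc1b (1.11) and Esrra (0.60) were higher, Pink1 (−0.80) was lower, and the other 7 lay between −0.09 and 0.09. Of the 15871 genes compared in heart, 10.9% were higher and 12.6% lower by this fold. The median of the regulators in heart was 0.02, against 0.0023 for all genes, and 2 intervals lay above 0 and 2 below, as did 22.7% and 24.1% of all intervals.

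**Figure D1:**
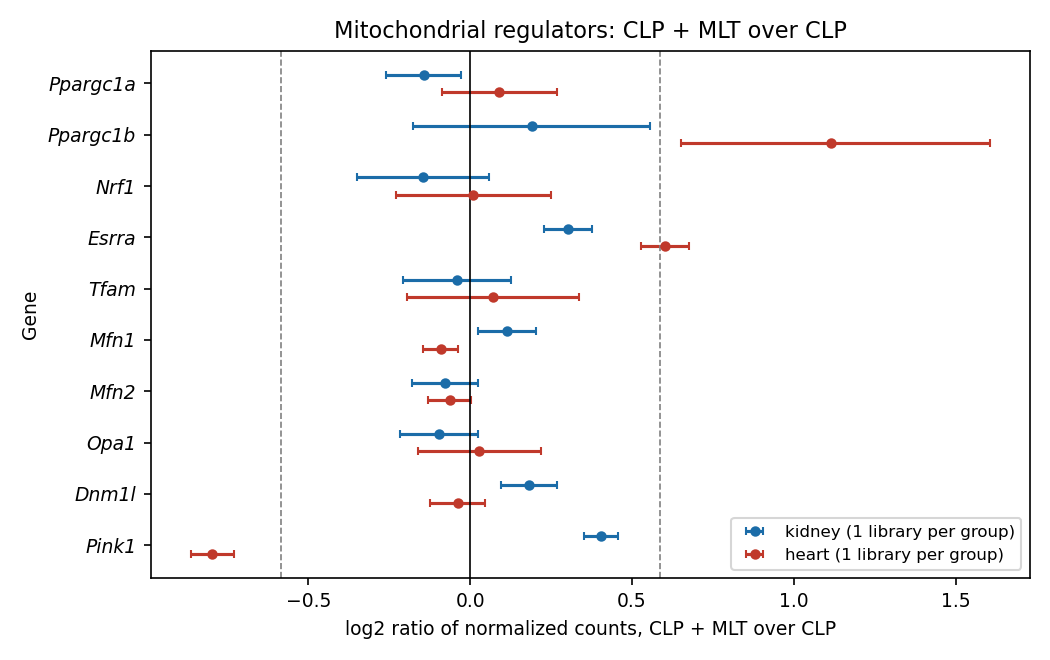
Log2 ratio of normalized counts, CLP + MLT over CLP, for each regulator in kidney (blue) and heart (red), 1 library per group. Points are the ratios, bars the 95% counting intervals and dashed lines a 1.5-fold difference. The heart points of Ppargc1b (1.11) and Esrra (0.60) lie beyond the upper line and that of Pink1 (−0.80) beyond the lower one, while all kidney points lie between the lines.

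Ppargc1a (ENSMUSG00000029167.13, mm10 chromosome 5, 51454250 to 51567726, minus strand) was counted 1664 times in the CLP kidney and 946 times in the CLP + MLT kidney. In the heart libraries the counts were 505 and 534. Scaled for depth, the kidney libraries differed little and the heart libraries less. The log2 ratio was −0.14 (−0.26 to −0.03) in kidney, an interval just below 0, with −0.34 when scaled by library size only, and 0.09 (−0.09 to 0.27) in heart, where these read numbers could not show a difference. In the order of all genes compared, from lowest to highest ratio, Ppargc1a stood at percentile 36.3 in kidney and 59.6 in heart.

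Ppargc1b (ENSMUSG00000033871.14, chromosome 18 from 61298136 to 61400431) was the regulator with the fewest counts. It had 152 and 109 counts in the CLP and CLP + MLT kidneys and 56 and 121 in the CLP and CLP + MLT hearts. Per sequenced read, the CLP heart library was the low one of the 4. The kidney log2 ratio was 0.19 (−0.18 to 0.56). In heart it was 1.11 (0.65 to 1.61), or 2.17-fold higher in the CLP + MLT library, at percentile 96.1 of all genes. A pair of small RNA genes, Mir378a and Gm25301, lie within Ppargc1b and had at most 5 counts in any library.

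The balance of the 2 coactivators differed between the heart libraries. On a per-length scale, within 1 library, Ppargc1a stood at 5.46 times the level of Ppargc1b in the CLP heart (4.14 to 7.33) and at 2.67 times in the CLP + MLT heart (2.19 to 3.28). The ratio of levels was 6.63 (5.61 to 7.88) in the CLP kidney and 5.25 (4.30 to 6.47) in the CLP + MLT kidney. The intervals of the heart libraries did not overlap and those of the kidney libraries did. These intervals cover counting error only, and the difference between tissues was not tested. The ratios use the same counts as the log2 ratios of both genes given above and are no separate evidence of them.

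Of the transcription factors, Nrf1 (ENSMUSG00000058440.14, chromosome 6 from 30047988 to 30153458) had 553 and 314 counts in the CLP and CLP + MLT kidneys, and 291 counts in each heart library. Its log2 ratio was −0.14 (−0.35 to 0.06) in kidney and 0.01 (−0.23 to 0.25) in heart, so neither interval left 0. Esrra (ENSMUSG00000024955.15, chromosome 19 from 6910977 to 6921813) was higher in the CLP + MLT library of both tissues. The counts of Esrra were 3368 in the CLP kidney, 2605 in the CLP + MLT kidney, 2538 in the CLP heart and 3826 in the CLP + MLT heart. After scaling, the log2 ratio was 0.30 (0.23 to 0.38) in kidney, under the 1.5-fold line and 0.11 when scaled by library size only, and 0.60 (0.53 to 0.67) in heart, a fold of 1.52 that lay just past it. The heart interval reached below the line as well. Esrra overlaps Trmt112, a gene for a methyltransferase partner on the other strand, and with no strand setting stated for the counting, reads of the pair cannot be told apart. Trmt112 had log2 ratios of −0.16 in kidney and 0.13 in heart, with 283 counts or fewer in heart.

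Tfam (ENSMUSG00000003923.14, chromosome 10 from 71225464 to 71238280) had 782 and 477 counts in the CLP and CLP + MLT kidneys and 231 and 241 in the CLP and CLP + MLT hearts. The log2 ratio was −0.04 (−0.21 to 0.12) in kidney and 0.07 (−0.20 to 0.34) in heart. Both intervals held 0, so the reads could not show a difference in either tissue. The share of reads on the mitochondrial genome, whose transcription TFAM starts, was higher in the CLP + MLT library of each tissue, as given above.

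The fusion genes differed less than 1.5-fold in both tissues. Mfn1 (ENSMUSG00000027668.13, chromosome 3 from 32529465 to 32579239) had 2526 and 1716 counts in the CLP and CLP + MLT kidneys and 5726 and 5341 in the hearts. Its log2 ratio was 0.11 (0.02 to 0.20) in kidney and −0.09 (−0.14 to −0.04) in heart, small values on opposite sides of 0. Scaled by library size only, the kidney value turned to −0.08, with the median of all genes at −0.19 under that scaling. Mfn2 (ENSMUSG00000029020.13, chromosome 4 from 147873599 to 147904704) had 2104 and 1252 counts in kidney and 3725 and 3542 in heart, in the same order of libraries. Ratios of Mfn2 were −0.08 (−0.18 to 0.02) and −0.06 (−0.13 to 0.0039) on the log2 scale. Opa1 (ENSMUSG00000038084.16, chromosome 16 from 29579334 to 29654884) had 1490 and 875 counts in kidney and 458 and 464 in heart, with log2 ratios of −0.10 (−0.22 to 0.03) and 0.03 (−0.16 to 0.22). The intervals of Mfn2 and Opa1 included 0 in both tissues.

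Dnm1l, the fission gene (ENSMUSG00000022789.15, chromosome 16 from 16312230 to 16358959), was counted 2649 times in the CLP kidney and 1886 times in the CLP + MLT kidney. It had 2269 and 2195 counts in the CLP and CLP + MLT hearts. The log2 ratio was 0.18 (0.10 to 0.27) in kidney and −0.04 (−0.12 to 0.05) in heart. The kidney value was −0.01 when scaled by library size only, again against a shift of all genes. An antisense gene, Gm49521, overlaps Dnm1l and had at most 21 counts.

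Pink1 (ENSMUSG00000028756.12, chromosome 4 from 138313409 to 138326307) had the highest level per length of the 10 in every library and the widest gap between the log2 ratios of the tissues. It had 6550 counts in the CLP kidney, 5442 in the CLP + MLT kidney, 4995 in the CLP heart and 2857 in the CLP + MLT heart. After scaling, the heart library of CLP + MLT was low and the kidney library of CLP + MLT high. The kidney log2 ratio was 0.40 (0.35 to 0.46), a fold of 1.32 at percentile 81.8 of all genes, and came to 0.21 when scaled by library size only. The heart log2 ratio was −0.80 (−0.86 to −0.73), which is 1.74-fold lower in the CLP + MLT library, at percentile 7.87. The difference of these log2 ratios, heart minus kidney, was −1.20 and was not tested, since each rests on 1 library per group.

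Pink1 also has the smallest summed exon length of the 10 genes, 2673 bases, and the shortest genes as a whole were lower in the CLP + MLT heart library. The median log2 ratio in heart was −0.12 in the shortest of 4 equal classes of exon length, and −0.03, 0.02 and 0.06 in the classes above it. Pink1 was not in the shortest class but in the next one, of 2278 to 3956 bases, whose median was −0.03. It lay at percentile 7.01 among the 3964 genes of that class, and its log2 ratio was −0.75 with the length trend removed. The same step left Ppargc1b at 1.12 and Esrra at 0.60 in heart. In kidney the medians of the classes ran from −0.01 to 0.02.

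Markers of cell types also differed between the libraries, and their part in the values of the regulators was not tested. In heart, 5 of the 7 cardiomyocyte markers were lower and 2 higher in the CLP + MLT library, with a median log2 ratio of −0.39 and 2 of them past the fold. None of the 7 was at 0. Of the 6 proximal tubule markers, 4 were higher and 2 lower in the CLP + MLT heart. The phosphate transporter gene Slc34a1, which marks proximal tubule, stood at 2.54% of its kidney level in the CLP heart and 4.86% in the CLP + MLT heart, after scaling for library size. Lrp2, also of proximal tubule, stood lower at 1.41% and 3.57%, and Umod, a thick limb marker, at 0.67% and 0.96%. In kidney, 3 of the 6 proximal tubule markers were higher and 3 lower, from −3.31 for Slc5a12 to 0.63 for Slc34a1. All 4 endothelial markers were lower there, with a median of −0.47 and 0 of them past the fold. Of the 4 adipocyte markers, 2 passed the filter in kidney and both were lower past the fold, Adipoq was at 0 in both kidney libraries, and none passed the filter in heart.

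The levels of the 10 genes were then put in order within each library, per length, in TPM, which divides reads by the summed exon length of each gene. In the CLP kidney the order from high to low was Pink1 (220 TPM), Esrra (68.9), Dnm1l (45.7), Mfn1 (37.1), Mfn2 (36.3), Ppargc1a (22.6), Opa1 (17.0), Tfam (15.8), Nrf1 (4.82) and Ppargc1b (3.42). The counting intervals of Mfn1 and Mfn2 overlapped, as did those of Opa1 and Tfam. The CLP + MLT kidney had the same order of levels, from 219 TPM for Pink1 to 2.93 for Ppargc1b, with overlap between Opa1 and Tfam and between Nrf1 and Ppargc1b. In the CLP heart the mitofusins moved up. There the levels were Pink1 200.2 TPM, Mfn1 100.3, Mfn2 76.8, Esrra 62.0, Dnm1l 46.7, Ppargc1a 8.21, Opa1 6.23, Tfam 5.58, Nrf1 3.03 and Ppargc1b 1.50, and only Opa1 and Tfam overlapped. The CLP + MLT heart differed from that order in that Esrra (103.7 TPM) stood above Mfn2 (81.1) and beside Mfn1 (103.9), and Ppargc1b (3.61) beside Nrf1 (3.37). Pink1 was still the highest there, at 127 TPM. Its level was 3.23 times that of Esrra in the CLP heart (3.08 to 3.39) and 1.23 times in the CLP + MLT heart (1.17 to 1.29), against 3.19 and 3.43 in the CLP and CLP + MLT kidneys. This ratio restates the opposite differences of Pink1 and Esrra between the heart libraries and is no separate evidence of them.

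**Figure D2:**
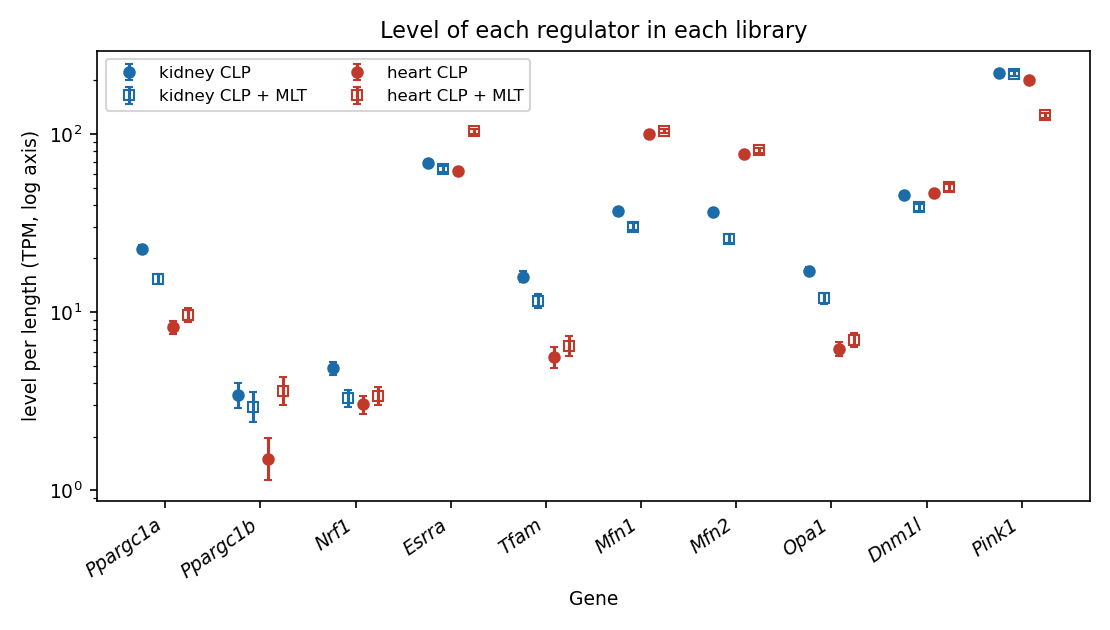
Level of each regulator in each of the 4 libraries in TPM on a log axis, with kidney in blue, heart in red, CLP as filled circles and CLP + MLT as open squares. Bars are 95% exact Poisson intervals of the counts. TPM depends on the share of mitochondrial reads, so points are to be compared within a library: Pink1 is the highest in each, and the mitofusins stand above Dnm1l in heart and below it in kidney.

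The fusion and fission genes stood in a different balance in the tissues. Within a library, Mfn1 was at 0.811 times the level of Dnm1l in the CLP kidney (0.768 to 0.857) and 0.774 times in the CLP + MLT kidney (0.725 to 0.827). In the hearts the same ratio was 2.15 (2.05 to 2.26) for CLP and 2.07 (1.97 to 2.18) for CLP + MLT. Mfn2 over Dnm1l was 0.796 and 0.665 in the kidneys and 1.64 and 1.62 in the hearts. Opa1, the inner membrane fusion gene, went the other way, with 0.372 and 0.307 times the level of Dnm1l in kidney and 0.133 and 0.140 in heart. Per summed exon length, Mfn1 thus stood at 2.18 times the level of Opa1 in the CLP kidney and 16.1 times in the CLP heart. The length of the transcripts present was not measured, and the intervals do not cover it. For each of these ratios, the heart and kidney values lay further apart than the CLP and CLP + MLT values of either tissue.

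Heart and kidney were also compared gene by gene, within each treatment, after TMM scaling over the 4 libraries. Of the 10 regulators, 3 were at least 1.5-fold higher and 3 at least 1.5-fold lower in the CLP heart than in the CLP kidney. Among all 17088 genes, 33.8% were higher and 36.8% lower by that fold. In the CLP + MLT libraries the regulators again numbered 3 and 3, where 34.5% and 36.7% of genes passed, but they were not the same genes. Mfn1 and Mfn2 were higher and Tfam and Opa1 lower by the fold in both treatments. Dnm1l (higher) and Ppargc1a (lower) passed in the CLP libraries, and Esrra (higher) and Pink1 (lower) in the CLP + MLT libraries. Mfn1 was 4.21-fold higher in the CLP heart (log2 2.07, 2.01 to 2.14) and 3.78-fold higher in the CLP + MLT heart. Mfn2 followed with 3.29-fold and 3.43-fold. In the CLP libraries the log2 ratio was −0.87 for Tfam, −0.83 for Ppargc1a and −0.81 for Opa1, and in the CLP + MLT libraries these values were −0.70, −0.54 and −0.63.

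Dnm1l had log2 ratios of heart over kidney of 0.67 in the CLP and 0.50 in the CLP + MLT libraries, Esrra 0.48 and 0.83, and Nrf1 −0.03 and 0.17. Pink1 and Ppargc1b changed side: Pink1 went from 0.50 (0.45 to 0.55) to −0.65 (−0.72 to −0.58) and Ppargc1b from −0.55 (−1.02 to −0.10) to 0.43 (0.04 to 0.82). These values come from the same libraries as the comparisons of CLP + MLT with CLP and are no separate evidence of them. Scaled by library size only, the median of all genes fell to −0.50 in the CLP libraries, and 2 regulators were higher and 4 lower by the fold. Of the 20 log2 ratios of heart over kidney, 16 moved beyond their counting intervals under that scaling. In the CLP libraries Mfn1 went to 1.64, Mfn2 to 1.29, Dnm1l to 0.24, Pink1 to 0.07, Esrra to 0.06 and Nrf1 to −0.46, while Opa1 went to −1.24, Ppargc1a to −1.26 and Tfam to −1.29.

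**Figure D3:**
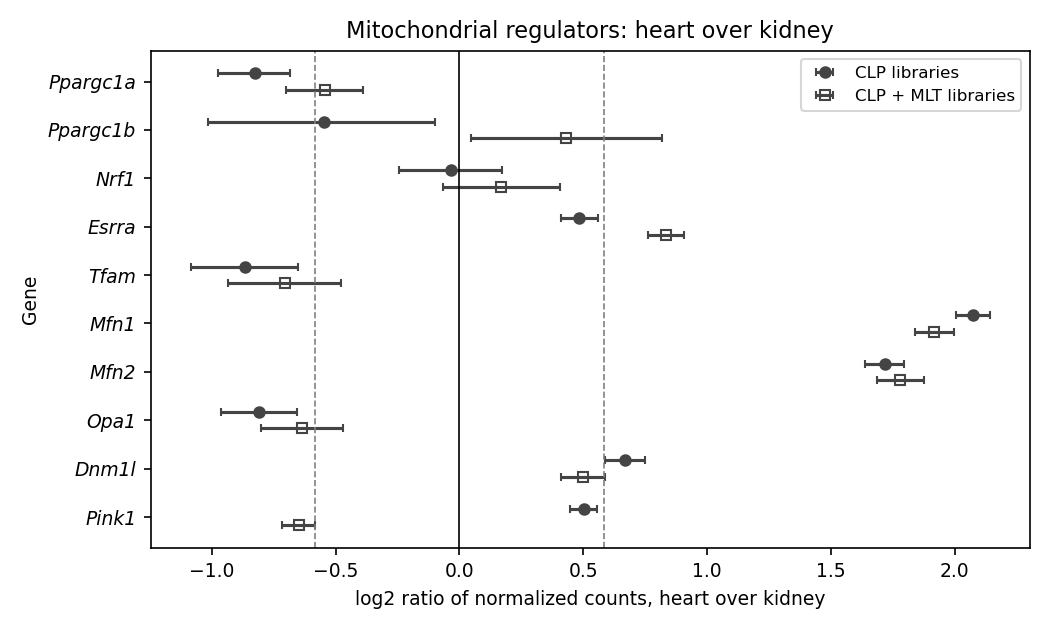
Log2 ratio of normalized counts, heart over kidney, for each regulator in the CLP (filled circles) and CLP + MLT libraries (open squares), with 95% counting intervals and dashed lines at 1.5-fold. Mfn1 (2.07 and 1.92) and Mfn2 (1.72 and 1.78) stand far to the right, and Pink1 and Ppargc1b lie on opposite sides of 0 in the CLP and CLP + MLT libraries.

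For a picture of the pathway around the regulators, 6 lists of further genes were counted, with the same fold of 1.5. Partners of the coactivators, which bind or modify PGC-1 or its receptors, numbered 22 and all passed the filter. In kidney 1 was higher and 1 lower, with a median log2 ratio of −0.06, and in heart 2 were higher and 0 lower, with a median of 0.07. With the trend on exon length removed, 1 partner rather than 2 was higher in heart. Background shares were 11% of genes higher and 11.6% lower in kidney, and those given above in heart. Prkaa2, a catalytic subunit of the energy sensor AMPK, was the lower one in kidney with 1585 and 631 counts (−0.66) and was higher in heart with 144 and 222 counts (0.63). The other 2, named after their values were seen, had few reads: Perm1, which acts with PGC-1 in muscle, had 59 and 98 counts in kidney (1.39), and Ppara, a receptor that turns on fatty acid oxidation, had 30 and 76 counts in heart (1.34). Sirt1, a deacetylase of PGC-1α, had values of 0.36 in kidney and 0.10 in heart, under the fold.

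The list for upkeep and transcription of mitochondrial DNA, the genes that work beside Tfam, held 20 genes. In kidney 3 were higher and 0 lower, with a median of 0.11, where 11% of all genes were higher and 11.6% lower. The 3 higher ones were Mterf4 (733 and 773 counts, 0.75) and the pair Mterf1a (0.87) and Mterf1b (1.08), which are near-identical copies. Reads without a unique place, tallied apart from the genes, may include reads of this pair. They made up 23.6% of all tallied reads in the CLP kidney and 32.6% in the CLP + MLT kidney. In heart 1 was higher, Polg2, a subunit of the mitochondrial DNA polymerase, with 38 and 62 counts (0.71), and 0 were lower, with a median of 0.13. Over all genes in heart, 10.9% were higher and 12.6% lower. The mitochondrial RNA polymerase gene Polrmt did not pass the fold in either tissue (0.19 in kidney, 0.34 in heart).

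Of 21 textbook targets of PGC-1 and ERR, 13 were lower and 1 was higher in the CLP + MLT heart, with a median of −0.87, while 12.6% of all genes were lower. Of the 7 cardiomyocyte markers in the same libraries, 5 were lower and 2 higher, with a median of −0.39. The lower ones were Myl2 (−1.33), Tnni3 (−1.27), Tnnt2 (−0.51), Myh6 (−0.39) and Ryr2 (−0.19), the higher ones Actc1 (0.47) and Pln (0.10). Their part in the values of the target list was not tested. Removing the trend on length left the targets with a median of −0.78 and the same numbers past the fold. The 4 with the largest differences were Cox7a1 (5421 and 1399 counts, −1.94), Cox5b (8103 and 2580, −1.64) and Cox6c (12796 and 4364, −1.54), subunits of cytochrome c oxidase, and Slc25a4, the ADP/ATP carrier (38358 and 13561, −1.49). The higher one, named after its value was seen, was Cpt1b (0.67), which brings fatty acids into muscle mitochondria. Beside the regulators, Esrra and Ppargc1b were higher in the library in which 17 of the 21 listed targets had ratios below 0. Ppargc1a (0.09), Tfam (0.07) and Nrf1 (0.01) differed little there. A link between the regulators and the listed targets was not tested. In kidney, 1 of 20 was higher, Cox6c (0.70), and 4 were lower, against 11% and 11.6% of all genes, with a median of −0.04. The lower ones were Pdk4 (6729 and 1290 counts, −1.71), a kinase that shuts pyruvate dehydrogenase, the uncoupling protein gene Ucp2 (−0.84), Etfdh (−0.64) and Ucp3, with 37 and 1 counts.

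Genes that act beside the mitofusins and OPA1, among them the OPA1 proteases Oma1 and Yme1l1 and the cristae proteins, gave 0 of 16 past the fold in kidney. In heart 0 were higher and 3 lower: Phb, encoding prohibitin (1698 and 748 counts, −1.17), Minos1 (1619 and 780, −1.04) and Chchd6 (74 and 39, −0.91), the last named after its value was seen. Their medians were −0.02 and −0.15. Oma1 and Yme1l1 had values of −0.26 and −0.03 in kidney and 0.13 and −0.16 in heart. Of 13 fission genes past the filter, Fis1, an outer membrane adaptor, was higher in kidney (2947 and 2781 counts, 0.59) and lower in heart (1480 and 817, −0.85). Its kidney value lay just past the fold and came under it with the length trend removed, when 1 other gene was lower past the fold. Mtfp1 was also lower in heart (−0.61), Mtfr2, named after its value was seen, was higher there with 24 and 47 counts (0.96), and with the length trend removed 1 fission gene rather than 2 was lower. The medians of the list were −0.27 in kidney and −0.19 in heart. Beside both lists, 11% of all genes were higher and 11.6% lower by the fold in kidney, and 10.9% and 12.6% in heart. Mff, the main receptor for DRP1, had −0.27 in kidney and 0.21 in heart.

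Mitophagy genes, which include the partners of PINK1, numbered 23. In kidney 3 were lower past the fold: the autophagy receptor gene Sqstm1 (20138 and 6926 counts, −0.87), Bcl2l13 (−0.60) and Fundc1 (−0.59). In heart 0 were higher and 2 lower, Map1lc3a (2946 and 1386 counts, −1.08), which encodes a protein of autophagosome membranes, and Tomm7 (503 and 300 counts, −0.73), whose protein helps to hold PINK1 on the outer membrane. With the length trend removed, 1 mitophagy gene rather than 2 was lower past the fold in heart. Over all genes, 11.6% were lower by the fold in kidney and 12.6% in heart. The medians of the mitophagy list were −0.06 in kidney and −0.19 in heart.

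**Figure D4:**
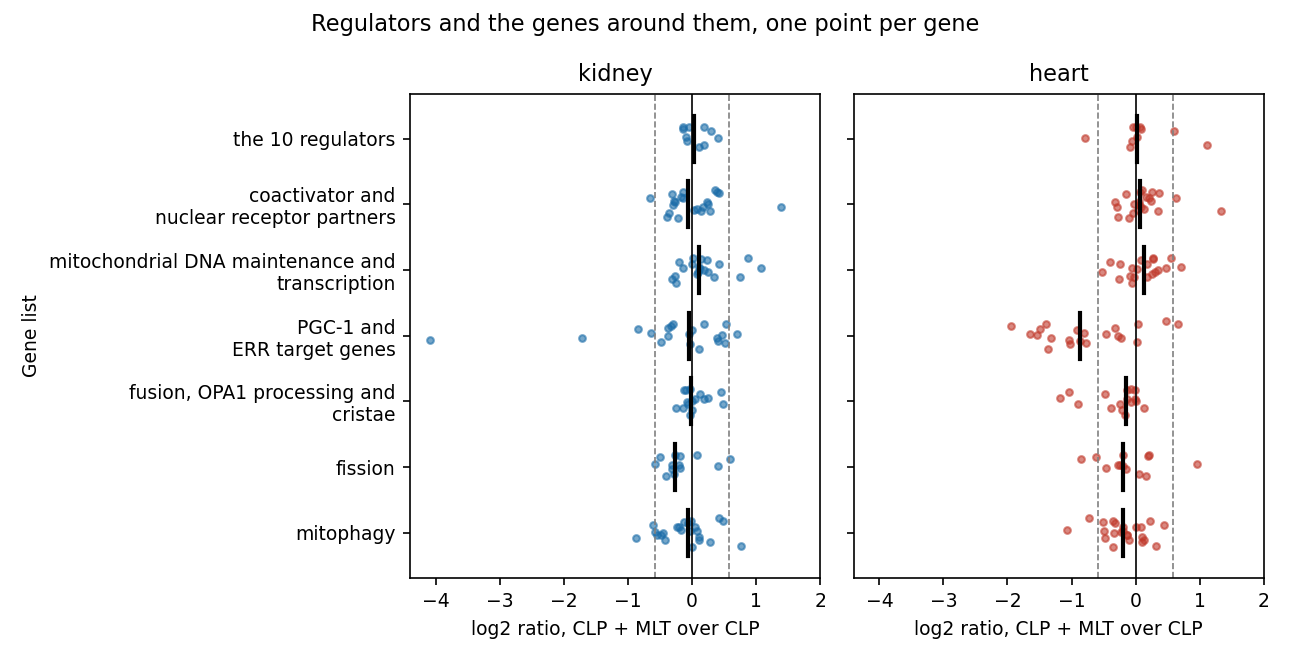
Log2 ratio of CLP + MLT over CLP for the 10 regulators and for each gene of the 6 lists that passed the filter, in kidney (left) and heart (right). Each point is 1 gene, black bars are medians and dashed lines mark 1.5-fold. In heart the targets of PGC-1 and ERR have a median of −0.87, while the regulators have a median of 0.02.

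Genes with the pattern most like that of a regulator were sought by the distance between log2 normalized counts over the 4 libraries, each gene centred on its own mean, among 9386 genes that averaged 100 counts or more in both tissues. Nearest to Ppargc1a was Nono, an RNA-binding protein gene, at a distance of 0.0233, followed by Chmp2b, Tmem128 and Ensa at up to 0.0555. Tfam was nearest to Thap11 (0.0337), then Pgm3, Exoc6 and Golph3. For Mfn2 the nearest were Zmynd8 (0.0326), the dystrophin gene Dmd (0.0504), Lrch3 and Tpm3. With 4 libraries such distances are a description only.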

How the data were processed

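The members and gene lists were chosen with earlier results of these data known. The authors trimmed reads with trim-galore, aligned them to mm10 with HISAT2 (v2.1.0), and deposited raw gene counts, made with HTSeq per the labels' processing notes (its version, strand setting and annotation: not given in the sources used here). The 5 lines that name no gene made up 65.5% to 72.8% of each file and were left out. Among reads tallied either on a gene or on no feature, 52.1% to 52.6% fell on no feature in each library.

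Names, positions and exon lengths came from GENCODE release M21 (GRCm38, the build of mm10), which matched 55141 of 55401 identifiers. Normalization factors came from edgeR 4.0.16 (TMM) and DESeq2 1.42.0 (size factors, as an alternative) in R 4.3.3. The rest ran in Python 3.11.15 (scipy 1.17.1, numpy 2.4.6, pandas 2.3.3, matplotlib 3.10.9). In each tissue, genes averaging 10 counts or more were kept. For log2 ratios, 0.5 counts, scaled to library size, were added. The study's edgeR criterion pairs a 1.5-fold change with a p-value, but 1 library per group leaves no degrees of freedom, so the fold alone was used. PCR copies are not independent molecules, so intervals cover counting error only. Ratios and intervals were tested on data simulated with counting error only, which says nothing of the spread between mice. TPM was computed from counts over summed exon length.

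All 10 members are named. A result for 1 gene of the mitophagy list is not reported here. Of each list, up to 4 genes past the fold with the largest difference and 100 counts or more on average are named, and the 4 genes nearest to Ppargc1a, Tfam and Mfn2. Others were named after their values were seen, for their role. The list genes Atp5o, which matched more than 1 identifier, and Micos13, which matched none, were taken as the identifier with more reads and left out. Alternatives were scaling by library size, DESeq2 or the upper quartile, an average of 50 counts or no minimum, 5 added counts, omission of haemoglobin and mitochondrially encoded genes, a fold of 2, the fold with its interval on 1 side of 0, and, added after the data were seen, removal of the trend on exon length.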

Additional observations from a re-analysis of the deposited data

Results flagged for a closer look

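For 2 of the 10 regulators and 10 of the 20 list genes named by rule, the counting intervals of CLP + MLT over CLP lay on opposite sides of 0 in kidney and heart. This was so for 13.4% of the 14592 genes compared in both tissues, and the list genes had been named for a large difference in a tissue, so their number is not to be read against that share. The differences between the tissues were not tested, since each group had 1 library. Heart minus kidney, the log2 ratios of the regulators differed by −1.20 for Pink1 and −0.20 for Mfn1. Scaled by library size only, Mfn1 was on the same side in both tissues (−0.08 in kidney, −0.03 in heart). Among list genes the heart value was lower for Cox7a1 (−2.41), Cox6c (−2.24), Cox5b (−2.17), Slc25a4 (−1.60), Minos1 (−1.50), Fis1 (−1.44), Phb (−1.42) and Tomm7 (−1.16), and higher for Prkaa2 (1.29) and Bcl2l13 (1.05).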

How the results depend on the processing

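No paired analysis was possible because each group had 1 library, and no library could be left out. In kidney, 0 regulators passed 1.5-fold under all alternatives run, and in heart 3 did, except that 1 passed a fold of 2. The kidney median of the regulators was 0.04 and moved to −0.16 with scaling by library size only, which moved the median of all genes to −0.19 and the calls over all genes from 1863 higher and 1971 lower to 1149 higher and 3172 lower. Under it, kidney values also went to −0.24 for Tfam, −0.27 for Mfn2, −0.29 for Opa1, −0.34 for Nrf1 and −0.0028 for Ppargc1b. In heart, over all alternatives, Ppargc1b ran from 1.06 to 1.17, Esrra from 0.60 to 0.66 and Pink1 from −0.80 to −0.74. No called value of a regulator turned its direction. A difference within the intervals given was not detectable at this depth.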
